A study of Macaca mulatta with 14 samples.

Results

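Respiratory complex I, the NADH:ubiquinone oxidoreductase of the inner mitochondrial membrane, was examined through its nuclear-encoded subunits and assembly factors. The members were all genes whose symbol begins with NDUFA, NDUFB, NDUFC, NDUFS or NDUFV, each read from probe sets that carry that symbol alone. They came to 32 genes on 54 probe sets, out of 52865 probe sets on the array. Of these, 24 were subunits, 6 were assembly factors of the NDUFAF series, and the other two were NDUFA4 and its paralogue NDUFA4L2. A gene was represented by its probe set with the highest mean log2 signal over all arrays.

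RNA came from PBMC, the mononuclear white cells of peripheral blood, which are mostly lymphocytes and monocytes. The donors were 14 male rhesus macaques, with 1 Affymetrix array for each. The comparison was between 7 animals fed a control diet, aged 24 to 27 years, and 7 animals on calorie restriction (CR), aged 24 to 30 years. The design text gives 16 years of restriction for both groups, read here as the time the CR animals had spent on the diet. No genetic or drug treatment is named in the labels of either group. The question was how long-term CR relates to expression of these genes in blood cells. Since PBMC are a mixture, a change in the share of a cell type and a change in RNA per cell cannot be told apart.

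Complex I is an L-shaped assembly that passes electrons from NADH to ubiquinone and pumps protons across the inner membrane. Its matrix arm holds the N module, which oxidises NADH, and the Q module, which reduces ubiquinone, and its membrane arm pumps the protons. Core subunits of the matrix arm carry the redox chemistry, and accessory subunits surround and stabilise the core. Assembly factors help build the complex without remaining in it. Lymphocytes and monocytes both use it, and it draws on nuclear and mitochondrial genes. The mitochondrially encoded ND subunits were not analysed here, nor were some nuclear genes of the complex and its assembly, such as NDUFAB1. A further 2 probe sets shared between NDUFB8 and other genes were not used.

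The arrays were alike in total brightness, with a trimmed mean signal of 500 on each. The median correlation of an array with the others over the 26383 tested probe sets was lowest in control 1 (0.879), and the other arrays lay between 0.908 and 0.934. Of 8 marker genes of monocytes, 8 were lower in CR, with a summed signal of 34900 to 85040 in controls and 6233 to 64390 in CR, where CR 6 and CR 7 were lowest. T cell markers were higher in 4 of 5 genes (summed signal 4305 to 8491 in controls, 6051 to 14090 in CR), NK cell markers in 5 of 6 (69140 to 120500, and 105000 to 167700) and B cell markers in 6 of 6 (5625 to 14060, and 6607 to 20810). The erythroid marker AHSP was at the floor of 4 (log2) on 12 of 14 arrays and the B cell marker CD79A on 4. Neutrophil markers were lower in 4 of 4 genes (2367 to 4223 in controls, 1034 to 5495 in CR), and platelet markers summed to 54470 to 137200 in controls and 30600 to 123300 in CR. Beyond the fits with marker scores given below, the part of these cell types in the differences was not tested.

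Most complex I genes had slightly higher signal in CR animals, and none passed the test. Of the 31 genes bright enough to be tested, 26 were higher and 5 lower in CR, where 54% of all 9355 tested genes were higher. The median difference was 0.14 on the log2 scale, a 1.10-fold difference, beside 0.025 over all tested genes. The largest differences were those of NDUFB4, a membrane arm subunit, and NDUFS7 and NDUFS8, the iron-sulphur subunits of the Q module, at 0.44 to 0.57. The assembly factor NDUFAF7 lay lowest, at -0.25. For 19 of 31 genes the difference was smaller than 0.2 in either direction, beside a median SE of 0.21.

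At an adjusted p under 0.05 (limma, Benjamini-Hochberg over all tested probe sets), 0 of 31 complex I genes and 0% of all tested genes were called. The adjusted p of the 31 genes ran from 0.918 to 0.998. At an unadjusted p under 0.05, 1 complex I gene was higher and 0 were lower, where 3.16% of all tested genes were higher and 2.02% lower, so this share was near the background. All 7 CR arrays lay above the control median for 1 gene, NDUFB4, where 5.56% of all tested genes met that condition. In 0 of 31 genes were the groups free of overlap, which held for 0.0641% of all tested genes. With scores of T cell, B cell, monocyte and NK cell markers as covariates, 16 of 31 genes were higher and the median difference was 0.0078. No share or median over all tested genes was taken in that fit, so the lower count cannot be called particular to complex I. Control and CR means of the scores were -0.23 and 0.23 (T cell), -0.11 and 0.11 (B cell), 0.30 and -0.30 (monocyte), -0.16 and 0.16 (NK cell). Without covariates, the median difference of the 31 genes was 0.092 without CR 2 and 0.22 without control 2.

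**Figure D1:**
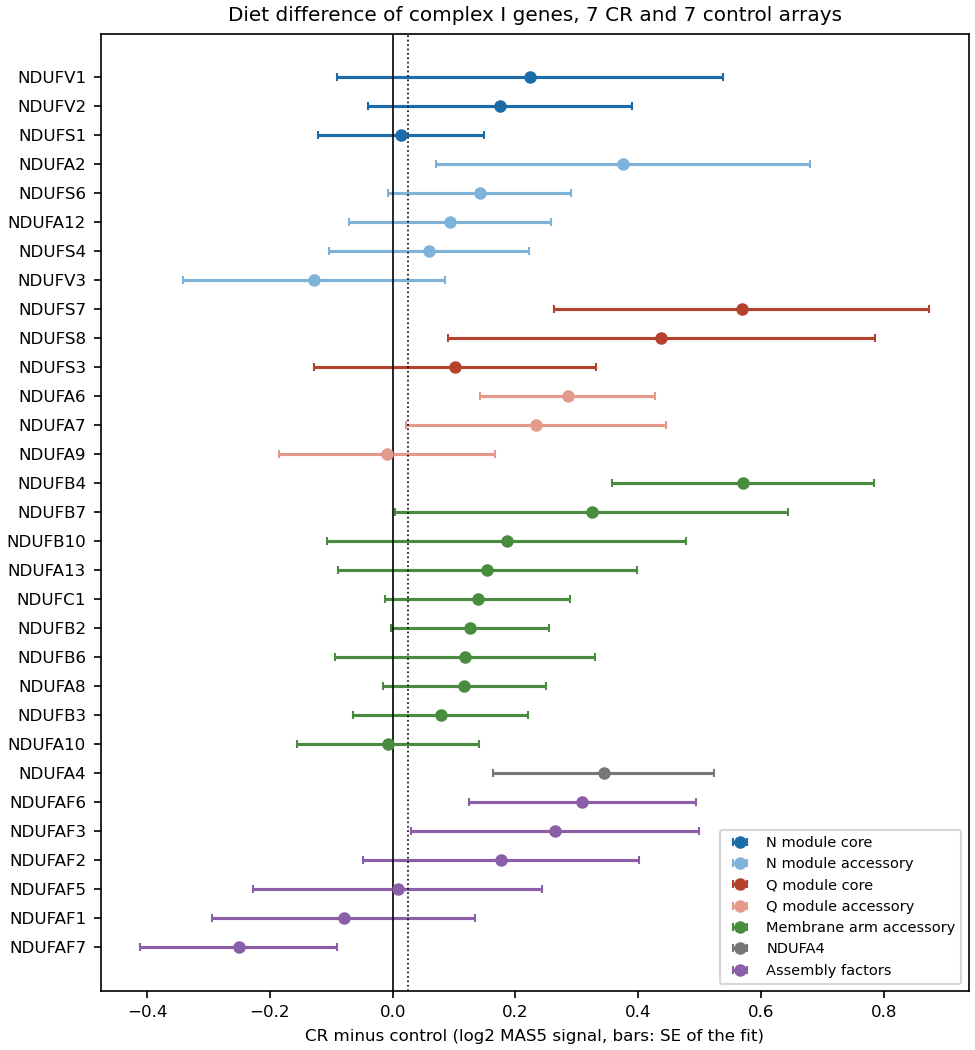
Difference in log2 MAS5 signal between 7 CR and 7 control arrays (horizontal axis) for each of the 31 tested complex I genes, grouped by role, with bars for the standard error (SE) of the limma fit. The solid line marks 0 and the dotted line the median of all tested genes, 0.025; 26 genes lie to the right of 0, and NDUFB4 and NDUFS7 lie farthest right at 0.57.

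Of the core subunits of the N module, where NADH is oxidised, 3 of 3 were higher, with a median difference of 0.18, and none passed the test. NDUFV1, which binds NADH and its flavin cofactor, ran from 9.32 to 11.18 in controls (median 10.03) and from 9.48 to 11.43 in CR (median 10.12). The ranges overlapped over nearly their whole length, and the difference was 0.22 ± 0.31 (SE). NDUFV2, an iron-sulphur subunit beside it, ran from 11.63 to 12.76 in controls (median 12.14) and from 11.52 to 12.81 in CR (median 12.35), a difference of 0.18 ± 0.22. In CR, 6 of 7 arrays were above the control median, and CR 7 was the lowest array of all. NDUFS1, the large iron-sulphur subunit, was narrow in both groups, from 12.13 to 12.47 in controls (median 12.28) and from 11.78 to 12.57 in CR (median 12.38). Its difference was 0.014 ± 0.14, with a 95% interval from -0.27 to 0.30.

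Accessory subunits of the same module gave 4 of 5 genes higher, with a median of 0.093. NDUFV3, a small accessory subunit, was the lower gene, from 7.16 to 7.86 in controls (median 7.28) and from 6.73 to 7.66 in CR (median 7.34). CR 2 and CR 3 were the lowest arrays, at 6.77 and 6.73, and the mean difference was -0.13 ± 0.21, while the CR median was the higher of the medians. NDUFA2, a subunit with a thioredoxin-like fold, differed by 0.38 ± 0.31, NDUFS6, a zinc-binding subunit, by 0.14 ± 0.15, and NDUFA12 by 0.093 ± 0.16. NDUFS4, in which mutations are a known cause of Leigh syndrome, differed by 0.059 ± 0.16.

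The core of the Q module showed the larger values among the roles, with 3 of 3 genes higher and a median difference of 0.44. NDUFS7, which carries the last iron-sulphur cluster before ubiquinone, ran from 10.10 to 12.30 in controls (median 11.17) and from 11.08 to 12.53 in CR (median 11.54). CR 1, CR 2 and CR 3 lay at 12.27 to 12.53 and the rest of the CR arrays at 11.08 to 11.54, and 6 of 7 were above the control median. Group means were 11.26 ± 0.71 for control and 11.83 ± 0.58 for CR animals (SD, n = 7 each). They differed by 0.57 ± 0.31 (SE), which did not pass (limma, adjusted p = 0.918). NDUFS8, the neighbouring iron-sulphur subunit, ran from 8.86 to 11.27 in controls (median 9.97) and from 9.26 to 11.20 in CR (median 10.47), a difference of 0.44 ± 0.35. The control range enclosed all CR values. NDUFS3, a core subunit that holds no cluster, ran from 10.28 to 11.46 in controls (median 10.68) and from 10.14 to 11.48 in CR (median 10.79), a difference of 0.10 ± 0.23.

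Around this core, NDUFA6, which anchors an acyl carrier protein to the matrix arm, was at 13.07 to 13.86 in controls (median 13.46) and 13.44 to 13.95 in CR (median 13.67). Of 7 CR arrays, 6 were above the control median and 3 above the highest control array, and CR 6 was lowest. The difference was 0.29 ± 0.14, or 1.22-fold, and did not pass (limma, adjusted p = 0.918). NDUFA7 differed by 0.23 ± 0.21. NDUFA9, a nucleotide-binding subunit at the junction of the arms, ran from 10.88 to 11.88 in controls (median 11.61) and from 11.20 to 11.76 in CR (median 11.47). The CR values lay inside the control range, and the difference of -0.0091 ± 0.18 was among the smallest of the 31 genes.

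In the membrane arm 9 of 10 measured accessory subunits were higher, with a median of 0.13. NDUFB4, a subunit of the far end of the arm, ran from 10.26 to 11.77 in controls (median 11.29) and from 11.34 to 12.13 in CR (median 11.95). All 7 CR arrays were above the control median and 4 were above the highest control, while control 5 was the lowest array, with control 4 next. Control animals averaged 11.25 ± 0.53 and CR animals 11.82 ± 0.27 (SD, n = 7 each), which is a gap of 0.57 ± 0.21 (SE), or 1.48-fold. It had the smallest unadjusted p of the 31 genes (0.0157), and over all tested probe sets it did not pass (limma, adjusted p = 0.918). Its difference was -0.0846 with the 4 marker scores as covariates, and with only the T cell score or only the NK cell score it was 0.18 or 0.16. With only the B cell, monocyte, neutrophil or platelet score it was 0.49, 0.50, 0.46 or 0.56. The other members of the arm were closer to 0. NDUFB7, a subunit held by disulphide bonds on the side of the intermembrane space, differed by 0.32 ± 0.32, NDUFB10 of the same fold by 0.19 ± 0.29, and NDUFA8, also of that fold, by 0.12 ± 0.13. NDUFA13 (also known as GRIM-19) differed by 0.15 ± 0.24, NDUFC1 by 0.14 ± 0.15, NDUFB2 by 0.13 ± 0.13, NDUFB6 by 0.12 ± 0.21 and NDUFB3 by 0.078 ± 0.14. NDUFA10, a subunit with a nucleoside kinase fold, was at -0.0076 ± 0.15.

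NDUFA4 was named as a complex I subunit and is now counted with cytochrome c oxidase, complex IV. It ran from 10.30 to 11.65 in controls (median 10.98) and from 10.97 to 11.64 in CR (median 11.30). The highest array was a control, control 2, yet 6 of 7 CR arrays were above the control median, and the difference was 0.34 ± 0.18. Its paralogue NDUFA4L2, known as a gene induced by low oxygen, was dim and was not tested. It ran from the floor to 6.62 in controls and from 4.58 to 6.49 in CR, with 2 arrays at the floor.

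**Figure D2:**
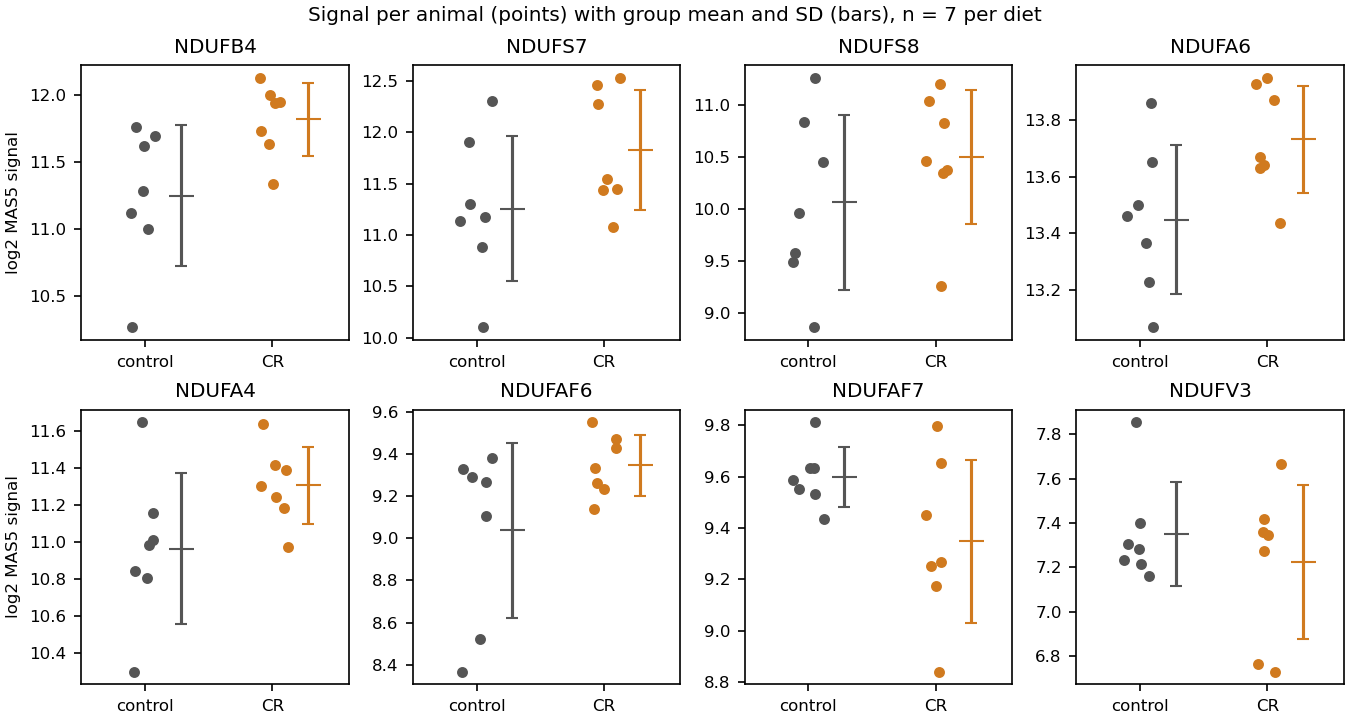
Log2 MAS5 signal per animal (points, vertical axis) for 8 complex I genes in the control and CR groups, with the group mean and SD drawn beside the points (n = 7 per diet). The groups overlap in every panel; in NDUFB4 all CR points lie above the control median, and in NDUFAF7 5 of 7 CR points lie below the control median.

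Assembly factors gave 4 of 6 genes higher with a median of 0.092, less than the subunits' 0.14 over 24 genes; the difference between the roles was not tested. NDUFAF6, needed early in assembly, ran from 8.37 to 9.38 in controls (median 9.27) and from 9.14 to 9.55 in CR (median 9.34). Control 1 and control 5, at 8.52 and 8.37, stood below all other arrays, and the difference was 0.31 ± 0.18. NDUFAF3, which acts on the Q module too, ran from 8.86 to 9.99 in controls (median 9.15) and from 8.92 to 10.22 in CR (median 9.47), a difference of 0.26 ± 0.23 with 6 of 7 CR arrays above the control median. NDUFAF2, a paralogue of NDUFA12 that acts late in assembly, ran from 8.75 to 10.03 in controls (median 9.82) and from 9.26 to 10.57 in CR (median 9.81), a difference of 0.18 ± 0.23. Its medians were nearly equal, and control 5 was the lowest array.

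NDUFAF5, which hydroxylates an arginine of NDUFS7, ran from 7.68 to 8.29 in controls (median 8.05) and from 7.31 to 8.86 in CR (median 7.95). The CR values spread on both sides of the controls, and the difference was 0.0079 ± 0.24. NDUFAF1, part of the complex that builds the membrane arm, ran from 11.34 to 12.19 in controls (median 11.83) and from 10.95 to 12.45 in CR (median 11.78), a difference of -0.080 ± 0.21. NDUFAF7, a mitochondrial methyltransferase, was tight in controls, from 9.44 to 9.81 (median 9.59), and wider in CR, from 8.84 to 9.80 (median 9.27). Of 7 CR arrays, 5 were below the control median and CR 3 and CR 6 were above it. The difference was -0.25 ± 0.16, or 0.840-fold, the lowest of the 31 genes, and did not pass (limma, adjusted p = 0.924). Other assembly factors of complex I outside the NDUFAF series were divided, with 6 of 11 higher, 0 called and a median of 0.048. Among them FOXRED1, an oxidoreductase-like factor, differed by 0.28 ± 0.18 and DMAC1, a factor of the distal membrane arm, by 0.18 ± 0.21.

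Within a diet group the complex I genes tended to vary together from animal to animal. After subtracting each group's mean, the median Pearson correlation over the 465 pairs of tested members was 0.26, and 69.0% of pairs were positive, beside a median of 0.0049 and 50.5% over all pairs of tested genes. These values are a description over 14 arrays that all pairs share. As a summary, a complex I score was taken for each array as the mean log2 signal of the 31 genes after centring each gene on its mean. The control scores were -0.46 (control 5), -0.29 (control 1), -0.25 (control 4), -0.018 (control 7), 0.049 (control 6), 0.067 (control 3) and 0.33 (control 2). The CR scores were -0.16 (CR 7), -0.054 (CR 6), -0.029 (CR 5), 0.018 (CR 4), 0.23 (CR 1), 0.24 (CR 3) and 0.33 (CR 2). The highest control and the highest CR array were level, and the lower end held 3 control arrays. Control 5 was the lowest of 14 arrays for 11 genes and control 1 for 6, and CR 2 was the highest for 10 genes and CR 1 for 6. The SD within controls was above that within CR for 19 of 31 genes. This count was not tested, no share over all tested genes was taken, and the genes share the same arrays.

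**Figure D3:**
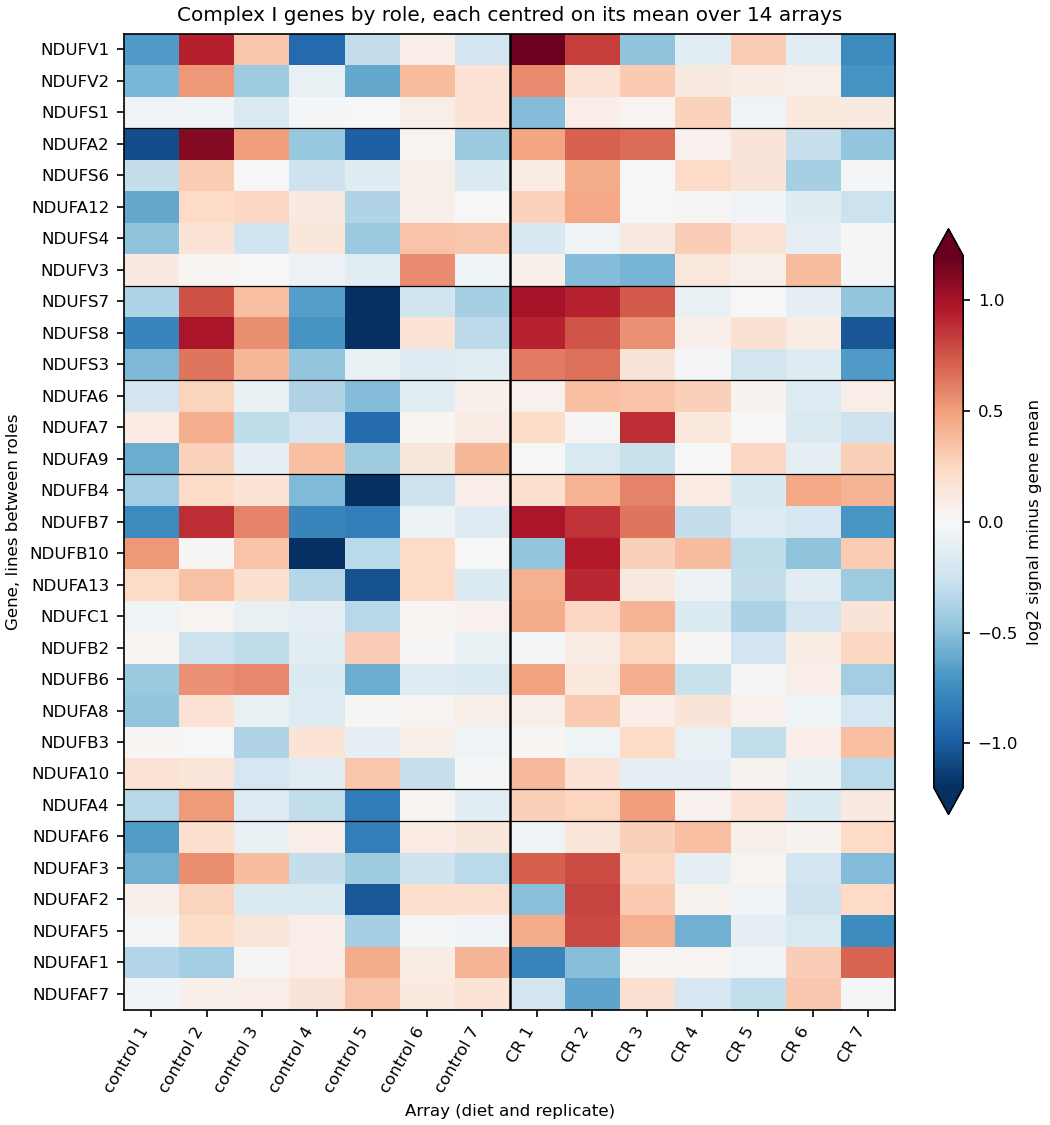
Log2 signal of the 31 tested complex I genes (rows, by role) on 14 arrays (columns, controls left of the line), each gene minus its mean over all arrays; red is above and blue below the mean. NDUFS7, NDUFS8, NDUFB7 and NDUFA2 are above their means on control 2, control 3, CR 1, CR 2 and CR 3 and below them on control 1, control 4, control 5 and CR 7, while NDUFB2 and NDUFB3 are paler on those arrays.

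The arrays also differed from one another in a measure of RNA quality. Affymetrix arrays carry control probe sets for the 3' end, the middle and the 5' end of GAPDH, EF1A and ACTB, and a higher ratio of 3' to middle signal is found where the labelled RNA is shorter. The log2 ratio of 3' to middle GAPDH ran from 3.33 to 5.78 in controls (median 3.64) and from 3.06 to 5.17 in CR (median 4.95). It was highest in control 1 and lowest in CR 1. In a fit with diet and this ratio, 24 of 31 complex I genes had a negative slope and 7 a positive one, where 45.6% of all tested genes had a positive slope. At an adjusted p under 0.05 over all tested probe sets (limma), 5 of 31 slopes (16.1%) were called negative, where 2.97% of all tested genes were, and 0 were called positive, where 1.22% were. The ratio was chosen after the values had been seen.

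The 5 genes were NDUFB7, with a slope of -0.65 ± 0.13 log2 units of signal per log2 unit of ratio (SE), NDUFS8 (-0.66 ± 0.15), NDUFA2 (-0.57 ± 0.14), NDUFS7 (-0.54 ± 0.14) and NDUFA12 (-0.29 ± 0.074). Of these, NDUFB7, NDUFA2 and NDUFA12 are singled out here after their values were seen. NDUFB2 (0.081 ± 0.076) and NDUFB10 (0.00017 ± 0.19) had no such slope. The number of called genes depended on single arrays: it was 0 without control 3, 1 without control 5 or CR 7, 2 without CR 1 or CR 6, 3 without control 1, control 2, control 4, control 6, CR 2 or CR 5, 4 without CR 3 or CR 4 and 6 without control 7. The share of all tested genes called negative also moved. It was 1.18%, 1.52%, 0.599%, 2.27%, 1.98%, 2.27% and 3.1% without control 1 to control 7, in that order. Without CR 1 to CR 7 it was 1.89%, 2.34%, 2.84%, 2.82%, 3.17%, 1.89% and 0.791%. With the other middle probe set of GAPDH 2 members and 1.73% of genes were called, and with no filter on signal 1 member and 0.898%. Without control 1 and CR 2 the count was 0 (0.0534% of genes), as it was without CR 6 and CR 7 (0.214%). The sign was steadier, with 23 to 25 negative slopes of 31 when 1 array was left out.

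The ratio overlapped widely between the diets, at 3.33 to 5.78 in controls and 3.06 to 5.17 in CR, with medians of 3.64 and 4.95. Beyond the fit given next, the part of RNA quality in the diet differences was not tested. With the ratio as a covariate 26 of 31 genes were on the higher side in CR animals, and the median difference was 0.21. At an unadjusted p under 0.05, 9 of 31 genes were then higher, where 7.46% of all tested genes were in that fit, and 0 passed the adjustment (limma). The other ratios, GAPDH 3' to 5', EF1A 3' to 5', EF1A 3' to middle and ACTB 3' to middle, gave 0 called slopes among the 31 genes, and 4, 7, 10 and 20 positive slopes. For these ratios the share of positive slopes among all tested genes was 47.3%, 49.4%, 52.1% and 53.7%, in that order. Their share of called genes over the whole array was 0%, 0%, 0.0214% and 0%. Marker scores also gave 0 called slopes among complex I genes, in the fits with the T cell, B cell, NK cell, monocyte, neutrophil and platelet scores. Positive slopes numbered 23, 20, 21, 23, 20 and 22 of 31, in that order. Among all tested genes the share of positive slopes was 56.6%, 55.2%, 53.8%, 49.8%, 52.1% and 50.7%. Over all tested genes the monocyte score had called positive slopes in 3.59% and negative ones in 1.25%, and the platelet score in 1.66% and 0.0962%. The T cell score had called slopes in 0.0214% of genes, all negative, and the B cell, NK cell and neutrophil scores in 0%. For all of these marker scores 0 of 31 was near the background.

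**Figure D4:**
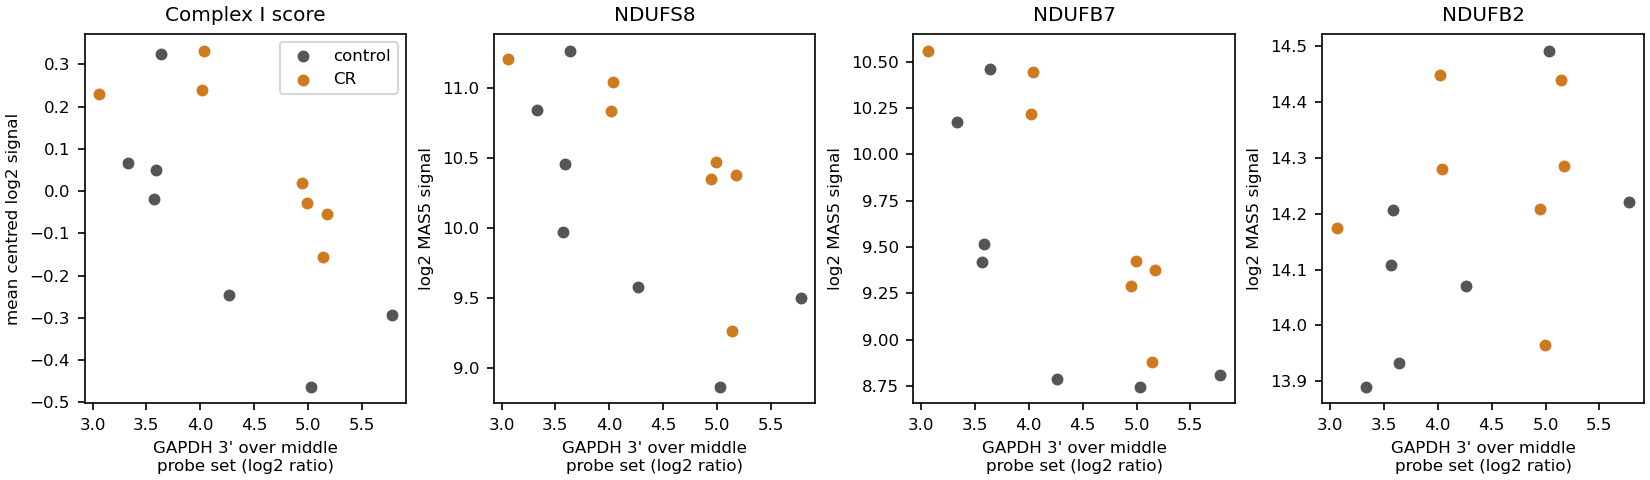
The complex I score (mean centred log2 signal) and the log2 MAS5 signal of NDUFS8, NDUFB7 and NDUFB2 (vertical axes) against the log2 ratio of 3' to middle GAPDH control probe sets (horizontal axis), 1 point per array, control in grey and CR in orange. NDUFS8 and NDUFB7 run from high at ratios near 3 to lower values at ratios above 5, with slopes of -0.66 and -0.65, and NDUFB2 does not, with a slope of 0.081.

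Probe sets of the same gene gave different answers in several members. In all, 15 of the 32 genes had more than 1 probe set, which gave 16 further tested probe sets, and 10 of these were higher in CR (62.5%), where 46.3% of all such further probe sets on the array were. Their median difference was 0.020, and 10 of 16 had the same sign as the gene's brightest probe set. Over the 14 arrays, 2 of the 16 correlated with the brightest probe set at a Pearson r over 0.5, and the median r was -0.028. Those 2 belonged to NDUFA2 (0.97) and NDUFA6 (0.82).

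NDUFB4 differed by 0.57 ± 0.21 on its brightest probe set and by 0.0088 ± 0.29 on its other one. NDUFS7 differed by 0.57 ± 0.31 and -0.052 ± 0.19. NDUFA6 had 5 tested probe sets, at 0.29 ± 0.14, 0.59 ± 0.26, 0.25 ± 0.25, 0.18 ± 0.17 and -0.37 ± 0.34, with the lowest value on its dimmest. NDUFV2 gave 0.18 ± 0.22 and -0.17 ± 0.22, and NDUFS6 gave 0.14 ± 0.15, 0.23 ± 0.19 and -0.17 ± 0.19. Whether the diet difference itself differed between a gene's probe sets was tested for 16 pairs, each by exact permutation (two-sided) of the diet labels over 3432 possible divisions. None passed: the smallest p was 0.0676, for the dimmest probe set of NDUFA6, and the adjusted p over the 16 pairs ran from 0.734 to 0.977. For NDUFB4 the gap was 0.56 (exact p = 0.237) and for NDUFS7 0.62 (exact p = 0.181).

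**Figure D5:**
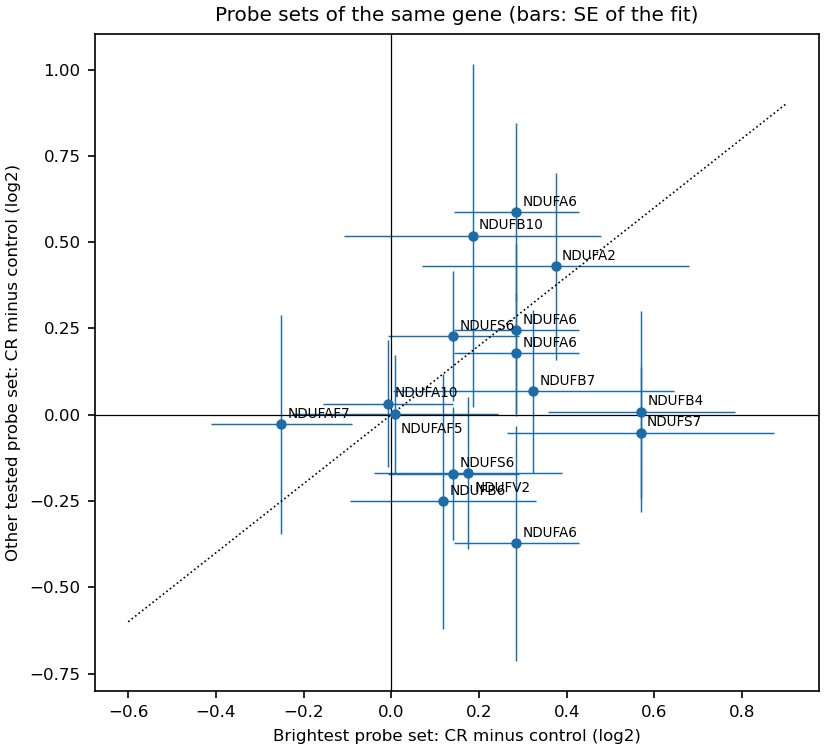
Difference in log2 MAS5 signal between CR and control on the brightest probe set of a complex I gene (horizontal axis) and on each of its other tested probe sets (vertical axis), with SE bars and a dotted line of equality. NDUFB4 and NDUFS7 lie at 0.57 on the horizontal axis and near 0 on the vertical axis, and NDUFA2 lies near the line.

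The rest of the respiratory chain was set beside complex I from lists of its genes. The complex II list held subunits of succinate dehydrogenase and their assembly factors, and 5 of its 7 tested genes were higher, with a median of 0.11. Its subunits SDHA, SDHB and SDHC were at 0.08 ± 0.12, 0.26 ± 0.29 and 0.13 ± 0.21. Its assembly factors SDHAF1 and SDHAF2 were at 0.11 ± 0.23 and 0.15 ± 0.18, and SDHAF3 and SDHAF4 were the lower genes, at -0.06 ± 0.29 and -0.02 ± 0.21. Of complex III genes 6 of 7 were higher, with a median of 0.074 and UQCRC1 at 0.48 ± 0.20 and CYC1 at 0.20 ± 0.16. Of complex IV genes 4 of 5 were higher, with a median of 0.15 and COX6B1 at 0.40 ± 0.15 and COX7B at 0.37 ± 0.21. Of ATP synthase genes 11 of 13 were higher, with a median of 0.14 and ATP5F1E at 0.66 ± 0.26 and ATP5MG at 0.35 ± 0.18. In these lists 0 genes were called (limma), and complex I, with a median of 0.14, lay within the range of these lists. On control 5, where complex I was lowest, the scores of complex II, III, IV and ATP synthase were -0.51, -0.29, -0.37 and -0.42. On control 4, where complex I was at -0.25, they were 0.07, -0.23, -0.05 and -0.18. The lowest score was on control 5 for complex IV, on control 1 for complex II and ATP synthase and on CR 7 for complex III (-0.43).

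Transcriptional regulators of respiratory chain genes lay on both sides of 0. Of 7 tested, 4 were higher and 3 lower, with a median of 0.052 and 0 called (limma). PPARGC1B, a coactivator of mitochondrial genes, averaged 8.43 ± 0.40 in control and 7.80 ± 0.53 in CR animals (SD, n = 7 each), and differed by -0.63 ± 0.25 (SE) with 1 of 7 CR arrays above the control median. YY1, a transcription factor that acts on many mitochondrial genes, differed by -0.25 ± 0.12, also with 1 of 7 CR arrays above the control median. Both had an adjusted p of 0.918 (limma) and did not pass. Other tested probe sets differed by -0.57 and 0.68 for PPARGC1B and by 0.06 and 0.06 for YY1.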

How the data were processed

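The values deposited by the authors are linear MAS5 intensities for every probe set of each array. MAS5 is named, without a version, in the submitters' processing notes; further steps were not given in the sources used here. MAS5 scales each array as a whole, so a change in total RNA per cell would not be visible.

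Intensities under 16 were set to 16 and log2 was taken. After leaving out 99 control probe sets, the 50% with the higher mean log2 over 14 arrays (26383 probe sets, 9355 genes) entered a limma fit (version 3.58.1, R 4.3.3, with trend and no covariate), whose two-sided contrast was CR minus control. Adjustment was by Benjamini-Hochberg over all tested probe sets, at 0.05. Values are log2 signal; fold changes are of geometric means. Samples are named biological replicates in the labels. The labels do not say that replicate numbers pair the animals. Same-numbered arrays correlated at -0.11 to 0.18 in their deviations from the group means, which cannot show whether animals were matched. All 32 gene IDs matched a current rhesus RefSeq table with the same symbol, and 6 brightest probe sets are of types that can read related transcripts. No genome build was given, so positions are not printed.

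Group ranges are given for the core subunits, assembly factors, NDUFA4 and NDUFA4L2, the 6 genes with the smallest p on the higher side and 4 on the lower, genes with opposing probe sets more than 0.5 apart, and other tested members by their difference. Of each other list the 2 genes with the smallest p are named; the remaining complex II genes were added after their values were seen. The members and lists were chosen with earlier results of these data known. In simulated arrays of this size, 200 of 26383 probe sets changed by 0.5, 1 or 2 log2 units were recovered at 0.5%, 30% and 89.5%. The simulated noise was normal and independent between probe sets, so variation shared by genes on the real arrays was not reproduced. Precision is limited by the number of arrays. Alternatives are in the closing section.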

Additional observations from a re-analysis of the deposited data

Results flagged for a closer look

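In 62 groups of 7 arrays (31 genes, each diet), 7 had an array far from the rest, measured as its gap to the nearest array over the range of the group (Dixon's 95% limit). Chance gives about 1 in 20. NDUFAF2 in control 5 was lowest at 8.75, with the nearest control at 9.59. NDUFAF5 in control 5 was also lowest, at 7.68, with the nearest at 8.03. NDUFB10 in control 4 was at 7.36, with the nearest at 8.48. NDUFV3 in control 6 was highest at 7.86, with the nearest at 7.40. NDUFA7 in CR 3 was highest at 11.25, with the nearest at 10.58. NDUFS1 in CR 1 was lowest at 11.78, with the nearest at 12.25. NDUFV2 in CR 7 was lowest at 11.52, with the nearest at 12.30.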

How the results depend on the processing

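Under all 29 alternatives 0 probe sets and 0 complex I genes were called, with the smallest adjusted p over all probe sets (limma) from 0.085 to 0.994. Members higher in CR ran from 16 to 28 of 31 and their median difference from 0.0078 to 0.25 (24 to 28, and 0.092 to 0.22, with 1 array left out). With the replicate block 0 were called and 26 were higher (limma, median 0.14, smallest adjusted p 0.622). By their deviations, 1 of 7 control arrays was best matched by the CR array of its own number, which leaves pairing unknown. The sign held for 14 members in the alternatives that tested them (28 of 29 for NDUFV3).

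Differences with the opposite sign were as follows. The cause was not tested, and no share over all genes was taken for the fit with marker scores. With marker scores as covariates, 16 members were higher, and NDUFA7 was at -0.078, NDUFB4 -0.0846, NDUFA10 0.12, NDUFS3 -0.0205, NDUFB10 -0.096, NDUFAF5 -0.0994, NDUFA13 -0.176, NDUFB6 -0.223, NDUFC1 -0.069, NDUFS8 -0.0411, NDUFAF2 -0.156 and NDUFB7 -0.139. Quantile normalization gave NDUFS1 -0.000169, and median centring NDUFA9 0.0254 and NDUFA10 0.0269. Array weights gave NDUFS4 -0.0185, NDUFA10 0.0369, NDUFAF5 -0.0896 and NDUFA12 -0.0251. The GAPDH 3' to 5' covariate gave NDUFA9 0.0889, and the 3' to middle covariate NDUFA9 0.0333 and NDUFS1 -0.0184. Without control 1 and CR 2, NDUFS4 was -0.00427, NDUFS1 -0.00365, NDUFS3 -0.0815, NDUFAF5 -0.127 and NDUFA12 -0.071. Without CR 6 and CR 7, NDUFS1 was -0.0304 and NDUFA10 0.0725. Averaging the probe sets of each gene gave NDUFA10 0.0122, NDUFAF5 -0.145 and NDUFB6 -0.0662. With 1 array left out, NDUFS4 ran from -0.0164 to 0.121, NDUFA10 -0.0726 to 0.0478, NDUFA12 -0.0017 to 0.144, NDUFA9 -0.109 to 0.057, NDUFS1 -0.0302 to 0.102, NDUFB10 -0.0398 to 0.288, NDUFAF5 -0.123 to 0.135, NDUFA13 -0.00767 to 0.238, NDUFAF1 -0.203 to 0.0473 and NDUFS3 -0.000146 to 0.223.

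Called negative slopes on the GAPDH 3' to middle ratio numbered 5 (2.97% of all genes). With 1 array left out they numbered 0 to 6, while the share of all genes ran from 0.599% to 3.17%. The count was 1 with no filter on signal (0.898%) and 2 with the other middle probe set (1.73%). It was 0 without control 1 and CR 2 (0.0534%) and 0 without CR 6 and CR 7 (0.214%). The fit with the 3' to middle ratio, all slopes and their alternatives, the test between probe sets and the fit without CR 6 and CR 7 were chosen after seeing the data. Dim probe sets such as NDUFA4L2 were close to the floor and were not tested.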
